A study of Mus musculus with 4 samples.

Results

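The genes described here encode the enzymes, carriers and peroxisome proteins that burn fatty acids in mitochondria and peroxisomes. They were taken from a list of 40 gene symbols, and all probe sets that the platform annotation assigns to a single listed symbol were used. This gave 71 probe sets for 38 of the 40 genes, out of 18193 genes named on the array. Acsl1 was not listed under its own symbol in the annotation used here, and Cpt1b appeared only on a probe set shared with Chkb and Gm44502, which read 17.6 and 5.08 in the hypomorph, against 7.59 and 13 in wildtype, and was not tested. No enzyme committed to ketone body synthesis is among the 40, and that step was not analysed here.

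Fatty acids are first joined to coenzyme A by acyl-CoA synthetases. Long-chain acyl groups cross the mitochondrial membranes as carnitine esters and are then shortened in a cycle of dehydrogenation, hydration, a further dehydrogenation and thiolysis, with electrons passed on through the electron transfer flavoprotein. Peroxisomes run a related cycle on very long and branched chains and hand the shortened products to mitochondria. In the small intestine this pathway is best known from absorptive enterocytes and crypt stem cells.

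The data came from 2 arrays of the Atg16-hypomorph and 2 arrays of the wildtype. The cells were Paneth cells, the antimicrobial secretory cells of the crypt base, isolated from mouse tissue with laser capture, and both genotypes were on a mixed C57BL/6 - 129ola background. A hypomorph has reduced rather than absent gene function, and Atg16l1 encodes a protein required to build autophagosomes. Neither the allele nor the age, number or pooling of the animals is stated in the labels, so a p-value here speaks only to the spread among 4 hybridised samples, and that spread may be technical.

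Levels are given as deposited linear intensities, replicate 1 before replicate 2. A log2 difference is the hypomorph mean minus the wildtype mean of log2(intensity + 32), and for dim probe sets it comes out smaller than the change in intensity. Median intensity lay between 47.2 and 49.5 on the 4 arrays. Atg16l1 read 966 and 995 in the hypomorph, against 1335 and 1183 in wildtype, and this difference did not pass the threshold (log2 difference -0.35, limma adjusted p = 0.102). Paneth cell markers were bright, and the 12 on the array summed to 85704 and 90942 in the hypomorph, against 86928 and 87523 in wildtype, with Mptx1 and Reg3g called higher, 0 called lower (limma; 2 had an unadjusted p under 0.05 and a lower value) and a median log2 difference of -0.06. The lysozyme gene Lyz1 was among the 10 not called, at 14561 and 15097 in the hypomorph, against 15481 and 16021 in wildtype. Markers of other cells were present too. The summed intensity of 14 fat cell markers was 34519 and 34528 in the hypomorph, against 10829 and 11005 in wildtype, with 10 of 11 tested markers higher, and Retn, Lipe and Pck1 too dim to test. For 23 enterocyte markers the sums were 56802 and 59459 in the hypomorph, against 43601 and 44042 in wildtype, with 12 of 20 tested markers higher, and Anpep, Treh and Rbp2 too dim to test. Markers of brown fat, a tissue with very high fatty acid oxidation, summed to 504 and 489 in the hypomorph, against 479 and 580.2 in wildtype. Of 7 such genes 5 were too dim to test, Ucp1 among them at 7.95 and 8.51 in the hypomorph, against 10.8 and 3.56 in wildtype, and 0 of the other 2 were called (limma; Cox7a1 had an unadjusted p under 0.05). Fibroblast and endothelial markers summed to 21155 and 22186 in the hypomorph, against 19233 and 19015 in wildtype (2 of 7 tested higher). Immune markers summed to 4569 and 4762 in the hypomorph, against 4044 and 3857 in wildtype. Of 6 tested immune markers 2 were called higher, the granzyme genes Gzma and Gzmb, and 0 lower (limma). Ptprc and Cd79a had lower values with an unadjusted p under 0.05 (limma), so the immune markers did not all lie on the same side. Muscle markers (0 of 7 called; sums of 8040.1 and 8436 in the hypomorph, against 8594 and 9784 in wildtype) and hepatocyte markers (1 of 3 tested lower; sums of 8901 and 9450.3 in the hypomorph, against 10931 and 10709 in wildtype) held no called rise (limma). Most of the hepatocyte sum was Cps1, at 7762 and 8402 in the hypomorph, against 9281 and 9175 in wildtype. Ttr was the marker called lower, and Alb, Fgb, Ahsg and Tat were too dim to test, so the sum does not show hepatocyte RNA. The part of these other cells in the results below was not tested. In material of this kind, fewer cells of a type and less RNA per cell cannot be told apart.

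The fatty acid oxidation genes had nearly the same summed level in both genotypes, and 3 single members rose. For each gene the probe set with the highest mean was used. The summed intensity of the 38 genes was 75953 and 77987 in the hypomorph, against 76116 and 76872 in wildtype. This sum weighs the brightest genes most, such as Hadh and Acsl5. By role, the ratio of the sums, hypomorph to wildtype, ran from 0.86 for the thioesterases to 1.17 for peroxisome assembly. The median log2 difference was 0.0069 over the 38 genes and -0.0027 over all genes on the array, with 20 of the 38 above 0 and 18 below. Of the 38 genes 34 were bright enough to test, with a mean log2 value at or above the array-wide median (an intensity of about 47.7).

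The thiolase gene Acaa1b, the acyl-CoA dehydrogenase gene Acadl and the peroxisome assembly gene Pex19 rose in the hypomorph, and 0 of the 34 genes fell (limma, adjusted p under 0.05; 3 had an unadjusted p under 0.05 and a lower value). The 3 rises are 8.82% of the members tested, beside 2.53% of all 11577 genes tested. The list was chosen with earlier results of these data known, so these shares do not test the pathway. Of the 3, Acaa1b alone stayed called without the brightness filter, and likewise without the intensity trend. Falls made up 1.70% of all genes tested. Looser counts were near the background. An unadjusted p under 0.05 was reached by 8 of the 34 genes (23.5%), against 21.7% of all tested genes. The hypomorph arrays both lay above the wildtype arrays for 11 genes and both below for 8, or 32.4% and 23.5% of the members tested, where all tested genes gave 23.4% and 30.0% (53.4% in either direction). By direction these shares differ from those of all tested genes, and that difference was not tested. At the level of probe sets, 4 of 51 tested rose and 0 fell, against 2.04% and 1.67% of all tested probe sets (3.71% in either direction). Of the 4 probe sets that rose, all read above the brightness limit on every wildtype array, so none passed it through the hypomorph alone.

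**Figure D1:**
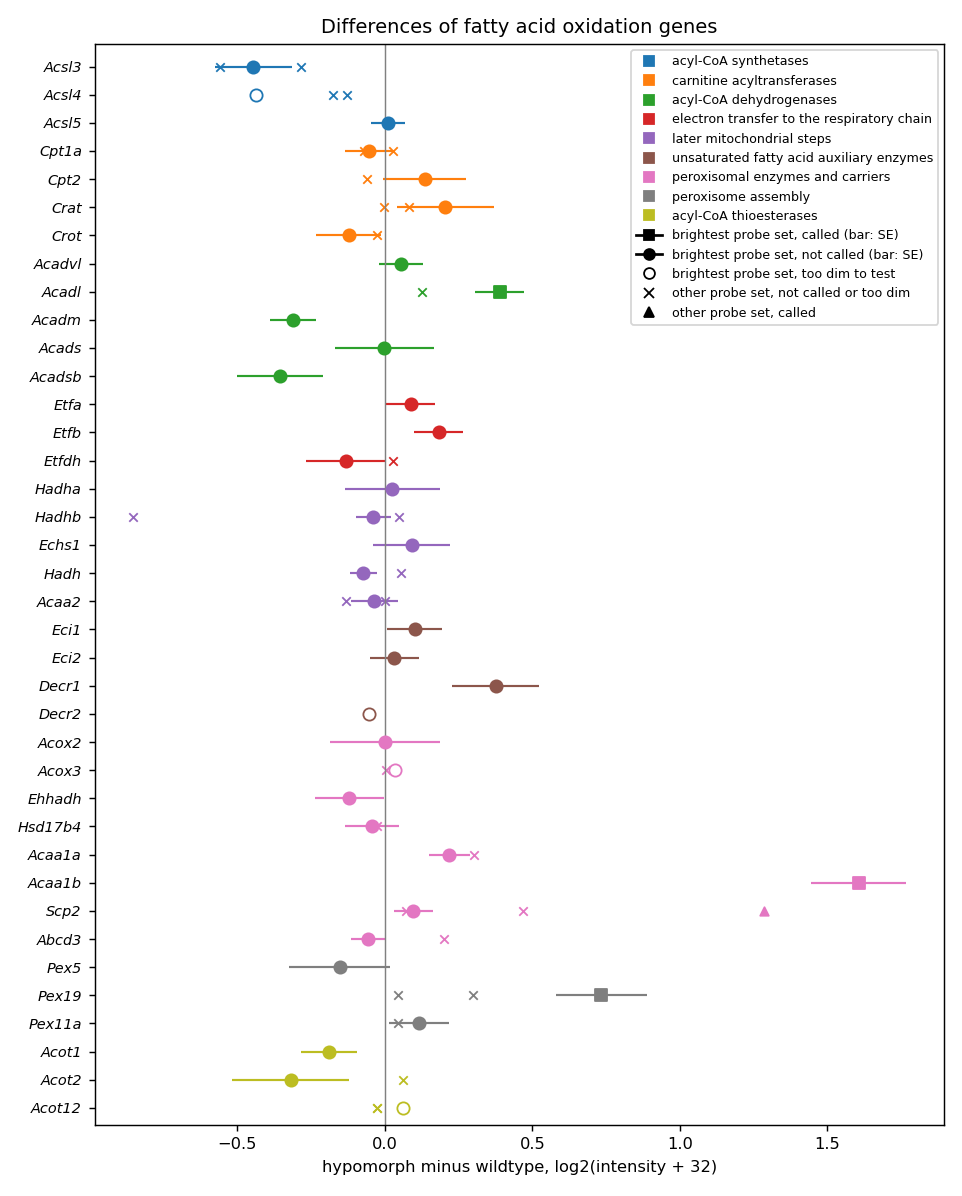
Difference in log2(intensity + 32), hypomorph minus wildtype (x axis), for all 71 probe sets of the 38 genes (rows), coloured by role; bars are standard errors of the brightest probe set (n = 2 arrays per group). Most brightest probe sets lie close to 0, and Acaa1b at 1.61, Pex19 at 0.73 and Acadl at 0.39 are the 3 genes called.

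**Figure D2:**
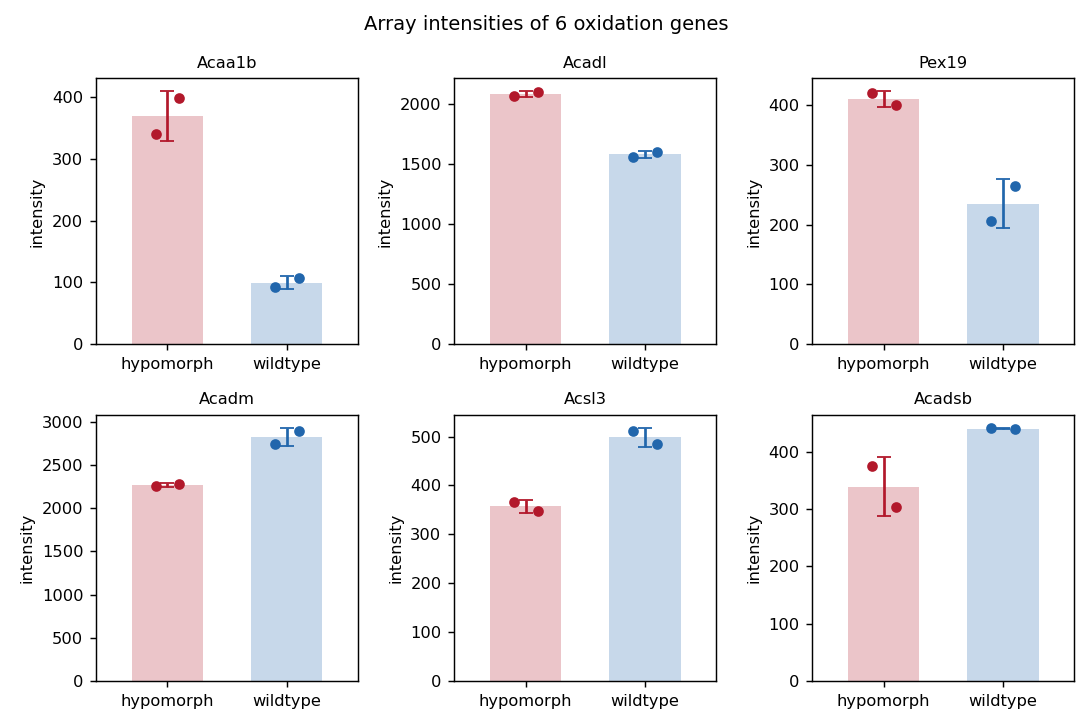
Intensity (y axis, linear) of the brightest probe set of 6 genes on each array, hypomorph left of wildtype; points are arrays, bars means and whiskers SD (n = 2). The hypomorph arrays lie above the wildtype arrays for Acaa1b, Acadl and Pex19 and below them for Acadm, Acsl3 and Acadsb, of which only the first 3 genes passed the test.

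Among the acyl-CoA synthetases, which trap fatty acids in the cell as CoA esters, none passed the test. Acsl3, a synthetase of the endoplasmic reticulum and lipid droplets, read 367 and 348 in the hypomorph, against 512 and 485 in wildtype. The groups did not overlap, and the mean was 358 ± 13.2 against 498 ± 19.6 in wildtype (SD, n = 2 each; log2 difference -0.45, SE 0.13, limma adjusted p = 0.0932). Both other Acsl3 probe sets were also lower on each hypomorph array, with differences of -0.28 and -0.56 that did not pass either (limma, adjusted p = 0.32 and 0.11). Acsl4, which prefers arachidonic acid, was near the floor at 32.7 and 34.6 in the hypomorph, against 51.3 and 63.0 in wildtype, and was too dim to test. Acsl5, the main synthetase of the intestinal epithelium, was bright, at 7408 and 7944 in the hypomorph, against 7806 and 7415 in wildtype (log2 difference 0.01, SE 0.06).

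Of the carnitine shuttle 0 of 4 tested genes were called, and 0 had an unadjusted p under 0.05 (limma). Cpt1a, the gate of the mitochondrial pathway and the target of inhibition by malonyl-CoA, read 2456 and 2328 in the hypomorph, against 2412 and 2556 in wildtype. Its 3 probe sets gave differences of -0.05, 0.03 and -0.07, with overlapping groups each time. Cpt2, which reforms the CoA ester inside the mitochondrion, read 772 and 939 in the hypomorph, against 692 and 862 in wildtype, and the groups overlapped (log2 difference 0.14, SE 0.14). Crat, the acetyltransferase, measured 103 ± 5.58 in hypomorph and 85.0 ± 7.57 in wildtype, and the peroxisomal octanoyltransferase Crot measured 697 ± 7.79 in hypomorph and 761 ± 29.7 in wildtype (SD, n = 2 each).

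The acyl-CoA dehydrogenases, which open each turn of the mitochondrial cycle and are graded by chain length, did not all lie on the same side. Acadl, the long-chain enzyme, read 2066 and 2102 in the hypomorph, against 1564 and 1605 in wildtype. The replicates lay close together and the groups apart, with means of 2084 ± 25.3 in hypomorph and 1584 ± 28.9 in wildtype, a ratio of 1.32 (SD, n = 2 each; log2 difference 0.39, SE 0.08, limma adjusted p = 0.0353). This call was lost when any 1 array was left out, with adjusted p of 0.075 and 0.0517 without hypomorph replicate 1 or 2 and 0.158 and 0.115 without wildtype replicate 1 or 2, while the difference stayed between 0.37 and 0.41. It was also lost without the brightness filter (limma adjusted p = 0.0988) and without the intensity trend in limma's prior (adjusted p = 0.139). Acadm, the medium-chain enzyme, lay the other way, at 2258 and 2284 in the hypomorph, against 2749 and 2901 in wildtype. Its groups did not overlap either, and the difference of -0.31 (SE 0.08) just missed the threshold (limma, adjusted p = 0.057). Acadsb, which acts on short branched chains from isoleucine, read 376 and 304 in the hypomorph, against 442 and 440.0 in wildtype, again without overlap (log2 difference -0.35, limma adjusted p = 0.205). Acadvl, the very long-chain enzyme of the inner membrane, was at 2970.1 ± 6.06 in hypomorph and 2859 ± 123 in wildtype, and the short-chain Acads at 100.4 ± 10.4 in hypomorph and 100.6 ± 10.2 in wildtype (SD, n = 2 each). The difference between Acadl and Acadm was not itself tested.

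Electrons from these dehydrogenases go to the electron transfer flavoprotein, whose subunits are encoded by Etfa and Etfb, and on through its dehydrogenase Etfdh. Etfb read 2390 and 2544 in the hypomorph, against 2252 and 2088 in wildtype, with no overlap and a difference of 0.18 that did not pass the test (SE 0.08, limma adjusted p = 0.25). Etfa gave 0.09 and Etfdh -0.13, both with overlapping groups.

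Differences at the later mitochondrial steps were small. Hadha and Hadhb encode the trifunctional protein of the inner membrane, Echs1 the short-chain hydratase, Hadh the short-chain hydroxyacyl-CoA dehydrogenase and Acaa2 the last thiolase. By brightest probe set, 0 of these 5 genes were called and 0 had an unadjusted p under 0.05 (limma), with differences between -0.07 and 0.09. Hadh was among the bright probe sets, at 13576 and 14353 in the hypomorph, against 14524 and 14838 in wildtype. Its other probe sets gave -0.07 and 0.06. Hadhb measured 6059 ± 168 in hypomorph and 6224 ± 197 in wildtype on its brightest probe set and 3709 ± 139 in hypomorph and 3581 ± 19.1 in wildtype on the next (SD, n = 2 each). The remaining, dim Hadhb probe set stood apart, at 73.4 and 175 in the hypomorph, against 172 and 316 in wildtype. It varied more within each genotype than the others did, its groups overlapped, and its difference of -0.85 did not pass (SE 0.32, limma adjusted p = 0.172). It passed without hypomorph replicate 2 (-1.34, adjusted p = 0.0165) and without wildtype replicate 1 (-1.24, adjusted p = 0.0442).

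Unsaturated fatty acids need extra enzymes to move or reduce their double bonds. Decr1, the mitochondrial dienoyl-CoA reductase, read 1016 and 787 in the hypomorph, against 753 and 618 in wildtype. The groups did not overlap and its 2 probe sets gave the same difference of 0.38, but neither passed (limma, adjusted p = 0.19 and 0.249). The isomerase genes Eci1 and Eci2 gave 0.10 and 0.03. The peroxisomal reductase gene Decr2 was too dim to test, at 21.4 ± 0.269 in hypomorph and 23.5 ± 2.92 in wildtype (SD, n = 2 each).

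Among the listed genes the clearest rise was that of Acaa1b, a gene for the last step of the peroxisomal cycle. Its paralogue Acaa1a, which read far brighter, was not called. Acaa1a and Acaa1b are close paralogues on chromosome 9 and encode the peroxisomal thiolases that release acetyl-CoA. Acaa1b read 341 and 398 in the hypomorph, against 92.7 and 107 in wildtype. Every hypomorph value was over every wildtype value, and the mean of 369 ± 40.3 in hypomorph was 3.70 times the 99.7 ± 9.95 of wildtype (SD, n = 2 each; log2 difference 1.61, SE 0.16, limma adjusted p = 0.000452). The call held in all 13 alternative settings run for this probe set, with differences of 1.13 to 1.88.

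Acaa1a lay higher too, by less. Its brightest probe set read 4626 and 4697 in the hypomorph, against 4170 and 3835 in wildtype, and its other one 3637 and 3178 in the hypomorph, against 2892 and 2612 in wildtype. Both separated the groups, with differences of 0.22 (SE 0.07) and 0.30 (SE 0.09), and neither passed (limma, adjusted p = 0.111 and 0.0939). The dimmer of these passed without hypomorph replicate 2 (0.40, adjusted p = 0.0251). Of 2 probe sets annotated to both genes, which belong to neither count, the brighter read 1600.34 and 1318 in the hypomorph, against 1074 and 954 in wildtype. It was called higher (log2 difference 0.51, limma adjusted p = 0.0484), and this call was lost without hypomorph replicate 1 (adjusted p = 0.184) and without wildtype replicate 2 (adjusted p = 0.188), and it was kept in 6 of 13 alternative settings. The other shared probe set was too dim to test, at 43.7 and 24.1 in the hypomorph, against 23.4 and 32.02 in wildtype, and its groups overlapped. The names of both Acaa1a probe sets end in x_at, which marks probes that can also bind other transcripts, so how much of each signal belongs to which paralogue is uncertain.

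**Figure D3:**
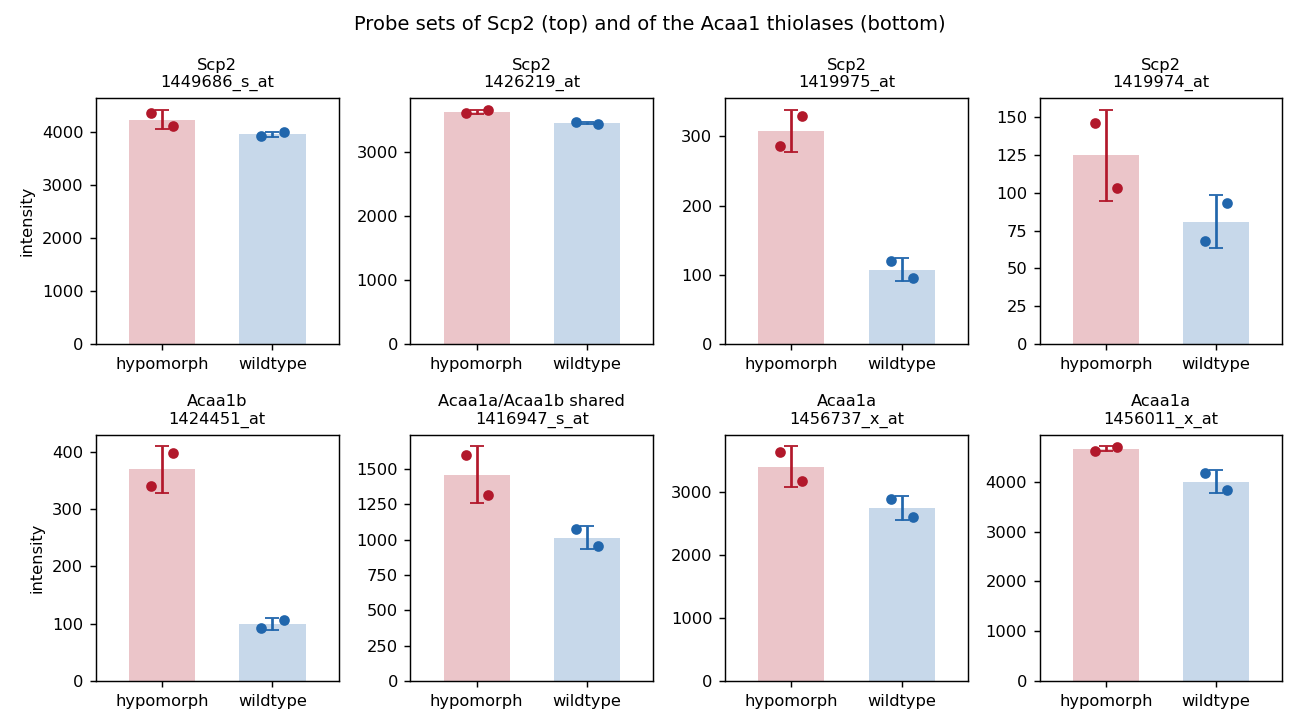
Intensity (y axis, linear) on each array for the 4 probe sets of Scp2 (top) and for probe sets of Acaa1b, of both paralogues together and of Acaa1a (bottom), hypomorph left of wildtype; points are arrays, bars means and whiskers SD (n = 2). The bright Scp2 probe sets are at ratios of 1.07 and 1.05, a dim one is at 2.86, and the Acaa1 probe sets read higher in the hypomorph in each panel.

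Scp2 gave a different result on each class of its probe sets. The gene encodes sterol carrier protein 2 and, from another start, the thiolase SCPx that cleaves branched-chain substrates in peroxisomes. Its brightest probe set read 4374 and 4111 in the hypomorph, against 3929 and 3997 in wildtype (log2 difference 0.10, SE 0.07, limma adjusted p = 0.448), and the next gave 0.07. A dim probe set read 286 and 329 in the hypomorph, against 119 and 95.9 in wildtype. On it the groups were far apart, and it was called at a ratio of 2.86 (log2 difference 1.28, SE 0.17, limma adjusted p = 0.00229), also with each array left out. The last probe set, at 146 and 103 in the hypomorph, against 68.3 and 93.0 in wildtype, lay in the same direction and did not pass (0.47, limma adjusted p = 0.214). Which part of the transcript each probe set reads was not analysed here.

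The sequences just before the start of Acaa1b and Scp2 are shown because each gene had a probe set that rose in all settings run, and that of Acaa1a as the close paralogue of Acaa1b. They are the 250 bases upstream of the transcription start in RefSeq's annotation of GRCm38.p6, written 5′ to 3′ on the strand of the gene. Capitals mark CCAAT, the binding motif of NF-Y, or its reverse complement in the 2 thiolase genes, and AGGTCA, the half-site of nuclear receptors such as the PPARs, in Scp2.
Acaa1b (chr9:119157094-119157343, minus strand): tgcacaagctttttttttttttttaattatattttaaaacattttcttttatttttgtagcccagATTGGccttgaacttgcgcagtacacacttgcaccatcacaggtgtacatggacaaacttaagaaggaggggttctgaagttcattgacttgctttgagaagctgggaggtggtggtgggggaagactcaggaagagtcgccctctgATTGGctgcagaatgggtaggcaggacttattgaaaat
Acaa1a (chr9:119341044-119341293, plus strand): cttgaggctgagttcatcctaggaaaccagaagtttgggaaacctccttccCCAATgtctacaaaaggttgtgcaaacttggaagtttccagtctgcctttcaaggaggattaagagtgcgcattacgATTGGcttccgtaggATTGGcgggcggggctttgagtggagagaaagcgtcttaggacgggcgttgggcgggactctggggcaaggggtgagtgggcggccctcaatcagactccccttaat
Scp2 (chr4:108118548-108118797, minus strand): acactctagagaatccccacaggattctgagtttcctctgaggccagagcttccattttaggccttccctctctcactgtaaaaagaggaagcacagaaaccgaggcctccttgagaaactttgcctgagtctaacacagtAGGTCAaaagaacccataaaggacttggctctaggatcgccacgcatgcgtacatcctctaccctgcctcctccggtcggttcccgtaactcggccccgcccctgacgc

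Acaa1b held 2 CCAAT matches and Acaa1a 3, and Scp2 held 1 AGGTCA. Upstream sequences were found for 34 of the 40 listed genes, and motifs were searched on both strands. CCAAT was present in 17 of the 34 genes and in 37.5% of all 27025 genes in the table. AGGTCA was present in 6 of the 34, namely Cpt1a, Acadvl, Acadm, Echs1, Scp2 and Acot12 (17.6%, against 15.8% of all genes). The full PPAR element, 2 AGGTCA half-sites repeated in the same direction with 1 base between them, and the element of estrogen-related receptors TNAAGGTCA, which both contain that half-site, were in 0 of the 34 and in 0.04% and 1.3% of all genes. Only exact matches were counted, and the exact full PPAR element was in 11 of the 27025 genes. A count of 0 of 34 therefore says little about whether the members have PPAR elements. These matches describe the letters in this window and were not set against the expression values.

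The other peroxisomal members did not pass. Ehhadh, the bifunctional enzyme of the straight-chain cycle, read 687 and 784 in the hypomorph, against 791 and 810.2 in wildtype (log2 difference -0.12, limma adjusted p = 0.603). Its counterpart Hsd17b4, which serves branched and very long chains, gave -0.04 and -0.03 on its 2 probe sets. Abcd3, a transporter of the peroxisomal membrane, was at 5641 ± 41.8 in hypomorph and 5874 ± 178 in wildtype (SD, n = 2 each; log2 difference -0.06). Acox2, the oxidase of branched chains and bile acid precursors, was dim, at 57.7 and 79.5 in the hypomorph, against 59.2 and 77.3 in wildtype, and Acox3 was too dim to test.

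Of the peroxisome assembly genes, Pex19 rose. It encodes the cytosolic chaperone that delivers membrane proteins to peroxisomes, and read 420 and 401 in the hypomorph, against 206 and 264 in wildtype. The hypomorph mean of 410.4 ± 13.4 was 1.74 times the wildtype mean of 235 ± 41.0 (SD, n = 2 each; log2 difference 0.73, SE 0.15, limma adjusted p = 0.0327). The wildtype arrays differed from each other more than the hypomorph arrays did, and the call was lost without wildtype replicate 1 (0.58, adjusted p = 0.18) and without hypomorph replicate 1 (0.70, adjusted p = 0.0903), and also without the brightness filter or the intensity trend (limma adjusted p = 0.109 and 0.0811). Both other Pex19 probe sets were too dim to test, and 1 of them, at 40.04 and 38.2 in the hypomorph, against 24.03 and 27.6 in wildtype, also kept the groups apart. Pex5, the import receptor for matrix enzymes, gave -0.15 and Pex11a, which promotes peroxisome division and is a known PPAR alpha target, 0.12 and 0.05 (limma, adjusted p = 0.66, 0.566 and 0.907).

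**Figure D4:**
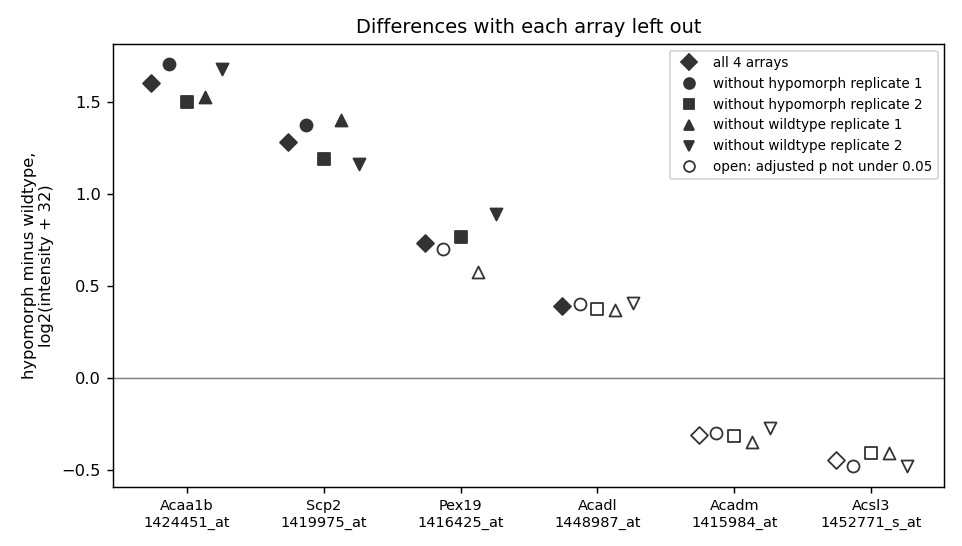
Difference in log2(intensity + 32), hypomorph minus wildtype (y axis), for 6 probe sets with all 4 arrays and with each array left out; filled symbols have a limma adjusted p under 0.05. Acaa1b and the dim Scp2 probe set stay filled throughout, Pex19 is open without replicate 1 of either genotype, and Acadl is open in all 4 settings that leave out an array.

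The acyl-CoA thioesterases, which split CoA esters back to free acids, were not called. Acot1, the cytosolic enzyme, read 1591 and 1421 in the hypomorph, against 1669 and 1768 in wildtype, with groups apart and a difference of -0.19 (SE 0.10, limma adjusted p = 0.3). Its mitochondrial paralogue Acot2 gave -0.32 with overlapping groups (limma, adjusted p = 0.398). A probe set annotated to both lay in the opposite direction, at 82.1 and 96.3 in the hypomorph, against 69.6 and 70.7 in wildtype (0.24, limma adjusted p = 0.438). Acot12, the acetyl-CoA hydrolase, was too dim to test on all of its probe sets.

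Acadl, Acsl3 and Pex19 lie on chromosome 1, as does Atg16l1. In gene order, 90 tested genes separate Acadl from Atg16l1, 36 separate Acsl3 and 297 separate Pex19. Of these 3 of the 90, 3 of the 36 and 12 of the 297 were called in either direction (limma), and the 36 lie within the 90. An effect of position near Atg16l1 was not tested. On that chromosome 26 of 694 tested genes (3.75%) were called, against 4.23% of all tested genes, and 13 of them (1.87%) were higher. The labels do not give the strain each genotype carries around Atg16l1.

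Other genes of the pathway, from a separate list of fatty acid oxidation and ketone body genes, had a median log2 difference of 0.02 over 34 genes. Of 30 tested, 2 rose and 1 fell, where 2.53% and 1.70% of all tested genes did. Counted by probe set, 2 of 48 rose and 5 fell, against 2.04% and 1.67% of all tested probe sets, and the 5 were 1 of Pdk4, 3 of Ppargc1a and 1 of Ivd. Pdk4, the kinase that shuts pyruvate dehydrogenase when fat is the fuel, fell, at 165 and 167 in the hypomorph, against 481 and 527 in wildtype (log2 difference -1.44, SE 0.14, limma adjusted p = 0.00042). Slc25a20, the carnitine-acylcarnitine translocase that stands between Cpt1a and Cpt2, read 2573 and 2621 in the hypomorph, against 1918 and 2029.7 in wildtype (0.39, SE 0.08, limma adjusted p = 0.0279). The call was lost without hypomorph replicate 1 (adjusted p = 0.0544), wildtype replicate 1 (adjusted p = 0.156) and wildtype replicate 2 (adjusted p = 0.0661), and its other probe set did not pass (0.33, limma adjusted p = 0.213). Acacb, the mitochondrial acetyl-CoA carboxylase whose malonyl-CoA restrains Cpt1a, rose, at 436 and 439.6 in the hypomorph, against 214 and 239.8 in wildtype (0.86, SE 0.14, limma adjusted p = 0.00945).

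Ivd, which encodes isovaleryl-CoA dehydrogenase of leucine breakdown, was also named after its values were seen. Its brighter probe set read 1257 and 1401 in the hypomorph, against 1217 and 1433 in wildtype, with overlapping groups (0.01, limma adjusted p = 0.982). The dimmer one fell, at 279 and 355 in the hypomorph, against 564 and 806 in wildtype (-1.03, SE 0.18, limma adjusted p = 0.0142). That call was lost without wildtype replicate 2 (adjusted p = 0.051), without the brightness filter (adjusted p = 0.0877) and without the intensity trend (adjusted p = 0.0851). Of the genes that use or interconvert ketone bodies, Bdh1, Oxct1 and Acat1 gave -0.36, 0.03 and -0.07 on their brightest probe sets and were not called (limma, adjusted p = 0.283, 0.85 and 0.478). Their other probe sets were not called either. Those of Acat1 gave -0.18 and -0.24 and that of Bdh1 -0.23, and all probe sets of these genes kept the hypomorph below wildtype without overlap. For Oxct1 the others gave -0.02, 0.20 and 0.14.

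Ppargc1a, a coactivator of oxidative genes, was singled out after its values were seen, because its probe sets differ. Its brightest probe set read 466 and 380 in the hypomorph, against 584 and 642 in wildtype, and did not pass (-0.51, limma adjusted p = 0.0781). Of its 4 dimmer probe sets 3 were called lower, with differences of -0.98, -0.91 and -0.83 (limma, adjusted p = 0.0111, 0.01 and 0.0165), and the fourth gave -0.29. The call at -0.98 was kept with each array left out, and lost without the brightness filter (limma adjusted p = 0.0583). That at -0.91 was lost without wildtype replicate 2 (adjusted p = 0.0693). The call at -0.83 was lost without hypomorph replicate 1 (adjusted p = 0.0552), wildtype replicate 1 (adjusted p = 0.0854), wildtype replicate 2 (adjusted p = 0.0551) or the brightness filter (adjusted p = 0.067). The nuclear receptor gene Ppara, also named after its values were seen, gave -0.35 on its brightest probe set and did not pass either (limma, adjusted p = 0.25). Uncalled genes lay on the higher side too. By brightest probe set, 5 of the 30 tested oxidation and ketone genes had an unadjusted p under 0.05 and a higher value, and 2 a lower one (limma). Slc27a4, named after its values were seen, read 414 and 391 in the hypomorph, against 276 and 265 in wildtype (0.52, limma adjusted p = 0.068).

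Other peroxisome genes had a median log2 difference of 0.03 over 34 genes. By brightest probe set 2 of 28 tested rose and 0 fell (limma), where 2.53% and 1.70% of all tested genes did. An unadjusted p under 0.05 came with a higher value in 4 of the 28 and a lower one in 0. The uncalled ones were Nudt7 (0.36) and Mpv17 (0.39), named after their values were seen (limma, adjusted p = 0.175 and 0.18). The other tested probe sets of Nudt7 gave 0.06 and 0.05 with overlapping groups, and that of Mpv17 gave 0.32 without overlap, none called. Of 48 tested probe sets 2 rose and 0 fell, against 2.04% and 1.67% of all tested probe sets. A higher value with an unadjusted p under 0.05 was found in 4 of the 48, and a lower one in 2. Both belong to Far1, the fatty acyl-CoA reductase of ether lipid synthesis, named after its values were seen, whose 4 tested probe sets gave -0.16, -0.56, -0.68 and -0.36, none called (limma, adjusted p = 0.426, 0.0607, 0.0551 and 0.306). Hao2, a peroxisomal 2-hydroxyacid oxidase, read 525 and 559 in the hypomorph, against 239 and 280.3 in wildtype (0.98, SE 0.14, limma adjusted p = 0.00446). Cat, the catalase that removes the hydrogen peroxide made by peroxisomal oxidases, read 4616 and 4456 in the hypomorph, against 3669 and 3776 in wildtype (0.28, SE 0.07, limma adjusted p = 0.0452). The Cat call was lost without hypomorph replicate 1 (adjusted p = 0.106), wildtype replicate 1 (adjusted p = 0.238) and wildtype replicate 2 (adjusted p = 0.163).

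**Figure D5:**
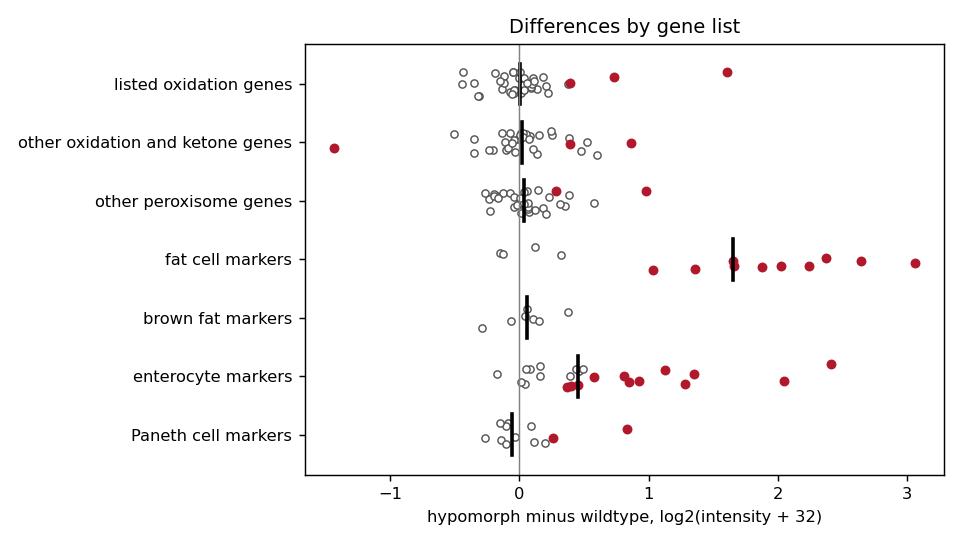
Difference in log2(intensity + 32), hypomorph minus wildtype (x axis), of each gene's brightest probe set in 7 gene lists (rows); filled points were called by limma, open points were not called or too dim to test, and vertical bars are list medians. The medians of the listed oxidation genes, the other oxidation and ketone genes and the other peroxisome genes are 0.01, 0.02 and 0.03, beside 1.65 for fat cell markers and 0.45 for enterocyte markers.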

How the data were processed

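Laser-captured RNA was extracted with PicoPure, then amplified and biotin-labelled (RiboAmp Plus) before hybridisation to 1-colour arrays, as the labels' protocols state. The authors deposited 1 linear intensity per probe set and array. The labels and headers used here name no scaling, background correction or probe summary. The trimmed means differed by a factor of at most 1.02 between arrays, so no further scaling was applied. Names came from the platform annotation: of 45037 probe sets without the 64 controls, 34945 carried 1 symbol and were named.

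Tests used log2(intensity + 32) and the 22519 probe sets whose mean reached the array-wide median of 6.32. Hypomorph and wildtype were compared with limma 3.58.1 in R 4.3.3 (lmFit and moderated statistics whose prior follows the mean intensity, 2 residual and 7.81 prior degrees of freedom), with Benjamini-Hochberg adjustment over these probe sets and two-sided calls at 0.05. Genes were counted by the probe set of highest mean. The number of arrays, 2 per group, limits the precision, which rests largely on the prior; with an array left out, a genotype's lone sample was taken to have the spread of the other genotype. On simulated data with 200 of 22519 probe sets changed, the fit recovered 12.7% of log2 changes of 0.5, 79.2% of 1 and 100% of 2. The simulated noise was drawn from the fit's own prior, and the changed probe sets were picked at random from all tested ones. The simulation gave 135 calls, against 836 in the data. Its cutoff on the unadjusted p was therefore stricter, and its recovery is not that of the data. All value columns were used.

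The members and lists were chosen with earlier results of these data known. Any member could be named, with values per array for those called or with an unadjusted p under 0.05; further uncalled members are given per array to describe their role. Genes of the other pathway lists were named where the brightest probe set was called. Ivd, Ppargc1a, Ppara, Slc27a4, Far1, Nudt7, Mpv17 and the ketone genes were named after their values were seen. Marker lists are given mainly as counts and sums. The replicate number was not stated to mark a shared animal or day.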

Additional observations from a re-analysis of the deposited data

How the results depend on the processing

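The member counts depended on the model and on single arrays. In the main analysis 4 probe sets and 3 genes of the pathway were higher and 0 lower. Without a filter on dim probe sets, and likewise without the intensity trend, 2 probe sets and 1 gene were higher, Acaa1b being that gene. Both settings also ended the calls of Slc25a20 (limma adjusted p = 0.0927 and 0.142) and Cat (0.136 and 0.221), and the Cat call was lost with median centring too (0.0539). A robust prior added 1 lower probe set and gene, Acadm. Averaging a gene's probe sets left 2 genes higher, Acaa1b and Scp2, and 2 lower, Acadm and Acsl3. With an array left out, the number of higher probe sets ranged from 2 to 4 and of higher genes from 1 to 2, and that of lower probe sets from 0 to 1, with 0 lower genes throughout. The median difference over the members ranged from -0.0489 to 0.0462 in those settings.

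Replicate numbers do not pair the samples by label. Differences between replicates 1 and 2 correlated between genotypes at 0.264 across 22519 probe sets. With the replicate block the calls rose to 7 higher and 4 lower member probe sets, or 5 and 2 genes, while over all probe sets 1489 were higher and 1717 lower, against 459 and 377 in the main analysis; 1 residual degree of freedom is left there.

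Pseudocounts of 1 and 128, centring on medians, quantile scaling and a stricter brightness filter left the member counts within 1.5 times of the main ones. Settings for genes of the other lists, for Atg16l1, Ivd and Ppargc1a and for the shared thiolase probe set were added after the data were seen. Of the single differences retested, 296 kept side and direction, 37 lost the call, 13 gained it and 2 turned, both of the uncalled Ivd probe set near 0, whose difference ranged from -0.11 to 0.12 with an array left out (-0.07 without hypomorph replicate 2). With 2 arrays per group, small changes were mostly missed in the simulation, where fewer probe sets were called than in the data.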
